A study of Mus musculus with 10 samples.

Results

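Cytosolic ribosomal protein genes were examined in long-term hematopoietic stem cells (LT-HSCs) sorted from mouse fetal livers at E14.5, a stage of fetal development at which the liver is the main site of blood formation. They were taken from the gene table by name: symbols of the Rpl and Rps series, Rplp0 to Rplp2 and Rpsa, without the kinases whose symbols begin with Rps6k and without Rps19bp1. This gave 257 of 17404 genes, of which 77 encode core proteins of the ribosome (46 of the large and 31 of the small subunit), 16 are paralogs or retrocopies and 164 are named as pseudogenes. The 6 KO libraries came from Tnfrsf11aCre; Spi1f/f embryos and the 4 WT libraries from Tnfrsf11a+/+; Spi1f/f controls, so that floxed Spi1 alleles were present in both groups and only the KO carried Cre. Cre driven from the Tnfrsf11a locus acts in yolk-sac-derived macrophage precursors, and Spi1 encodes PU.1, a transcription factor that macrophages need. The study describes the stem cells themselves as wild type in this model. RNA of sorted cells was amplified by SmartSeq2, which copies polyadenylated RNA. The study counts its replicates in embryos and calls the controls littermates; the labels do not tie a library to an embryo or a litter, and p-values measure the spread between these libraries.

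A ribosome joins a large subunit, which forms peptide bonds, and a small subunit, which reads the mRNA. Most of their proteins are present once in each ribosome, and the mRNAs of these proteins share a 5′ terminal oligopyrimidine (TOP) start, a C followed by a run of C and T, through which mTOR and Larp1 control their translation together. Some core genes have a paralog that can take their place in the ribosome. Stem cells of the blood are known for low protein synthesis and for sensitivity to the loss of single ribosomal proteins, as in Diamond-Blackfan anemia.

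The starts of 3 of the genes that differed between the genotypes, and of the parents of 2 paralogs, show the TOP start and its absence. The windows below span 15 bases before and 15 after a RefSeq start (GRCm38.p6), 5′ to 3′, with capitals on a C and the unbroken run of C and T after it where that run holds at least 5 bases and begins within 5 bases of the start.
Rps27, chr3:90213634-90213663, minus strand: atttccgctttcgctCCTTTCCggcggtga
Rps27l, chr9:66946071-66946100, plus strand: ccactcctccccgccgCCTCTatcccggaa
Rpl36a, chrX:134585639-134585668, plus strand: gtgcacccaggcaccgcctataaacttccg
Rpl36al, chr12:69184053-69184082, minus strand: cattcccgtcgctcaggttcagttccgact
Rpl35, chr2:39005117-39005146, minus strand: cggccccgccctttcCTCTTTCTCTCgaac
Of the 77 core genes, 57 matched a RefSeq start, and such a run opened exactly at a start in 13 of them (22.8%), against 813 of 27025 genes with a RefSeq start (3.01%). Within 5 bases of a start it was found in 27 of the 57 (47.4%), against 21.2% of all genes. Only the strand of the gene was searched. The window of Rpl35 lies 493 bases from the Gencode start of the coding transcript with most of its counts, those of the other genes shown at most 16 bases.

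The gene table holds 5315435 to 30941726 counts per KO library and 7633446 to 18256010 per WT library. Spi1 was at 9.10 to 101 CPM (counts scaled for library size after TMM normalization, the scale of all levels per library below) in KO and at 6.22 to 50.1 in WT, and did not pass the test (log2 fold change 1.31, SE 0.69, edgeR adjusted p = 0.337), so its RNA did not check the labels. All 9 markers of HSCs were detected in every library, and 3 of them (Mecom, Hlf and Hoxa9) were higher in KO (33.3%). Over all genes tested 1.32% were called higher and 2.67% lower at an edgeR adjusted p below 0.1. The log2 fold change was above 0 for 8 of the 9 HSC markers, with an unadjusted p below 0.05 for 7, and its median was 1.49. The summed level of these markers ran from 301 to 1505 CPM in KO and from 319 to 509 CPM in WT. Of 8 erythroblast markers 1 (Epor) was lower in KO, all 8 had a log2 fold change below 0 (median -1.29), and their summed level ran from 1176 to 32645 CPM in KO and from 1475 to 82516 CPM in WT. Globin genes took 23.5% of the counts in WT replicate 3, 12.4% in KO replicate 6 and 6.001% in KO replicate 5, and at most 2.44% in the others. Of 9 macrophage markers 1 (Marco, at 0 counts in every KO library) was lower, with summed levels of 186 to 916 CPM in KO and 85.8 to 682 in WT. The log2 fold change was below 0 for 7 of the 9 (median -1.15) and above 0 for Mrc1 and Vcam1. Mrc1 had the highest mean level of the 9, 329 CPM in KO and 283 CPM in WT, and weighs most in these sums. None of the 4 hepatoblast, 5 endothelial, 4 granulocyte and 4 megakaryocyte markers passed the test, and the summed levels overlapped between the groups: hepatoblast markers were at 48.0 to 5504 CPM in KO and 137 to 3726 in WT, endothelial markers at 806 to 5722 and 160 to 3607, granulocyte markers at 10.7 to 308 and 5.46 to 1623, and megakaryocyte markers at 153 to 2965 and 152 to 1054. Their part in the results below was not tested.

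The first question was which ribosomal protein genes differed in LT-HSCs of KO and WT embryos. At an adjusted p below 0.1, 5 genes were lower in KO and 0 higher, among 243 members with at least 11 counts in total, which edgeR's quasi-likelihood test compared with adjustment over all 16725 genes tested. Over all genes tested 2.67% were called lower and 1.32% higher, so the 5 of 243 (2 of 16 paralogs, 3 of 77 core genes and 0 of 150 pseudogenes tested) are near the background. At an unadjusted p below 0.05, 46 members were lower (18.9%, against 10.2% of all genes tested) and 3 higher. Of the 46, 38 were core genes (49.4% of these). DESeq2 called 25 lower and 1 higher, where 7.85% and 6.84% of all genes with an adjusted p were called. With the study's fold-change threshold of 0.1 on the log2 scale it called 4 lower and 1 higher, against 3.86% and 4.1% of all genes. In bulk RNA, fewer cells of a type that expresses a gene and less of its RNA per cell cannot be told apart. Of the 5 genes, Rps27l, Rpl36al, Rpl27 and Rpl35 are described here. The adjusted p-values lay between 0.0824 and 0.0993, close to the threshold, and the smallest over all genes was 0.0743. None of the 5 passed when KO replicate 1, 2, 4, 5 or 6 or WT replicate 1 was left out, and in 5 of these 6 fits no gene of the whole table passed either.

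Rps27l, a paralog of the small subunit gene Rps27 known as a target of p53, lies on chromosome 9 of GRCm38 from 66946086 to 66949516. It was at 156 CPM in the lowest, 205 in the median and 227 in the highest KO library, and at 515, 276, 286 and 393 CPM in WT replicates 1 to 4. Every KO library was below every WT library, which held for 3.48% of all genes tested. Its log2 fold change was -0.91 (SE 0.20, edgeR adjusted p = 0.0824).

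Rpl36al, the autosomal counterpart of X-linked Rpl36a, lies on chromosome 12 from 69182731 to 69184083. Its levels were 169, 230 and 239 CPM (lowest, median and highest) in KO and 523, 259, 297 and 442 CPM in WT, again without overlap. The log2 fold change was -0.84 (SE 0.22, edgeR adjusted p = 0.0846).

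Rpl27, a large subunit gene mutated in some cases of Diamond-Blackfan anemia, lies on chromosome 11 from 101442298 to 101445529. It was at 75.9, 92.1 and 101 CPM in the lowest, median and highest KO library and at 234, 136, 114 and 134 CPM in WT, with no overlap. Its log2 fold change was -0.78 (SE 0.21, edgeR adjusted p = 0.0910), a value that depended on how reads were divided between Rpl27 and a pseudogene, described further on.

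Rpl35, at the exit of the peptide tunnel, lies on chromosome 2 from 39001580 to 39005624. It was at 463, 557 and 637 CPM (lowest, median and highest) in KO and at 860, 754, 671 and 1282 CPM in WT. The groups did not overlap, but the highest KO and lowest WT library lay close together. Its log2 fold change was -0.69 (SE 0.20, edgeR adjusted p = 0.0993).

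For these genes the WT libraries fell into a higher pair (replicates 1 and 4) and a lower pair (replicates 2 and 3), Rpl27 being the exception.

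**Figure D1:**
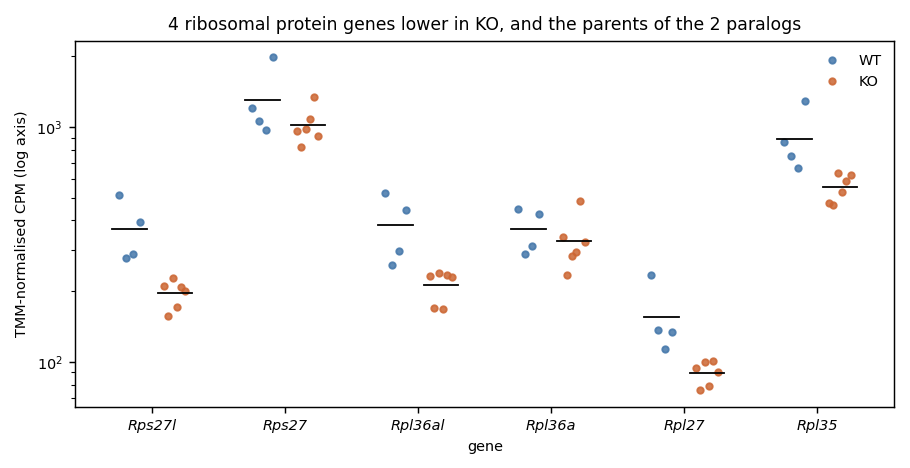
Levels (TMM-normalised CPM, log axis) of 4 ribosomal protein genes lower in KO and of Rps27 and Rpl36a, the parents of the 2 paralogs, in 4 WT and 6 KO libraries; each point is a library and each line a mean. KO and WT points do not overlap for these 4 genes, while those of both parents do.

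The 77 core genes, all of which were tested, lay on the same side almost without exception. The log2 fold change was below 0 for 76, against 46.9% of all genes tested, and its median was -0.41, against 0.06 over all genes. The position against 0 depends on the scale. With an offset for transcript length the median was -0.22, against -0.07 over all genes (difference -0.15, in the main fit -0.47). The total of the core genes as library size centres these genes by construction. With it their median was 0.01, against 0.44 over all genes (difference -0.42). Mean TPM is scaled to each library's own total without TMM. It was lower in KO for 36 and higher for 41 core genes (median log2 ratio 0.01). A gene's length largely cancels in such a ratio, and no TPM median over all genes was taken. Other lists also lay higher in TPM. Regulators of TOP mRNAs, described below, had a median of 0.40, against 0.12 in the main fit. The core genes also varied together, so their number is not a number of independent observations. Over the 10 libraries the median Pearson correlation of 2926 pairs of core genes was 0.85, as a description, and 82.5% of their variance lay on 1 component. Summed over the core genes, the level ran from 47753 to 68104 CPM in KO and from 58277 to 91980 CPM in WT, and the groups overlapped.

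Transcript length moved with the genotype in these libraries and with these genes. Spearman's rho between a gene's expression (log2 deviation from its mean over libraries) and its transcript length was 0.06 to 0.18 in the 6 KO libraries and -0.19 to -0.11 in the 4 WT libraries, without overlap. Because each gene is centred on its own mean, a difference between the groups tends to appear as opposite signs, so only the lack of overlap is read here. Core genes had a mean transcript length of 383 to 1860 bases (median 712), against a median of 1828 bases over all genes tested. Other genes within that range of lengths and with a mean of at least 55.7 CPM, the lowest of a core gene, numbered 2580. Their median log2 fold change was -0.32, 75.2% of them were below 0, and 298 were called lower (11.6%) and 11 higher. With the length offset, 0 ribosomal protein genes were called in either direction, 65 of 77 core genes had a log2 fold change below 0 and the smallest adjusted p of a member was 0.131. Over all 16725 genes tested, 272 were called lower and 40 higher with it. The part of transcript length in the results was not tested beyond this offset.

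**Figure D2:**
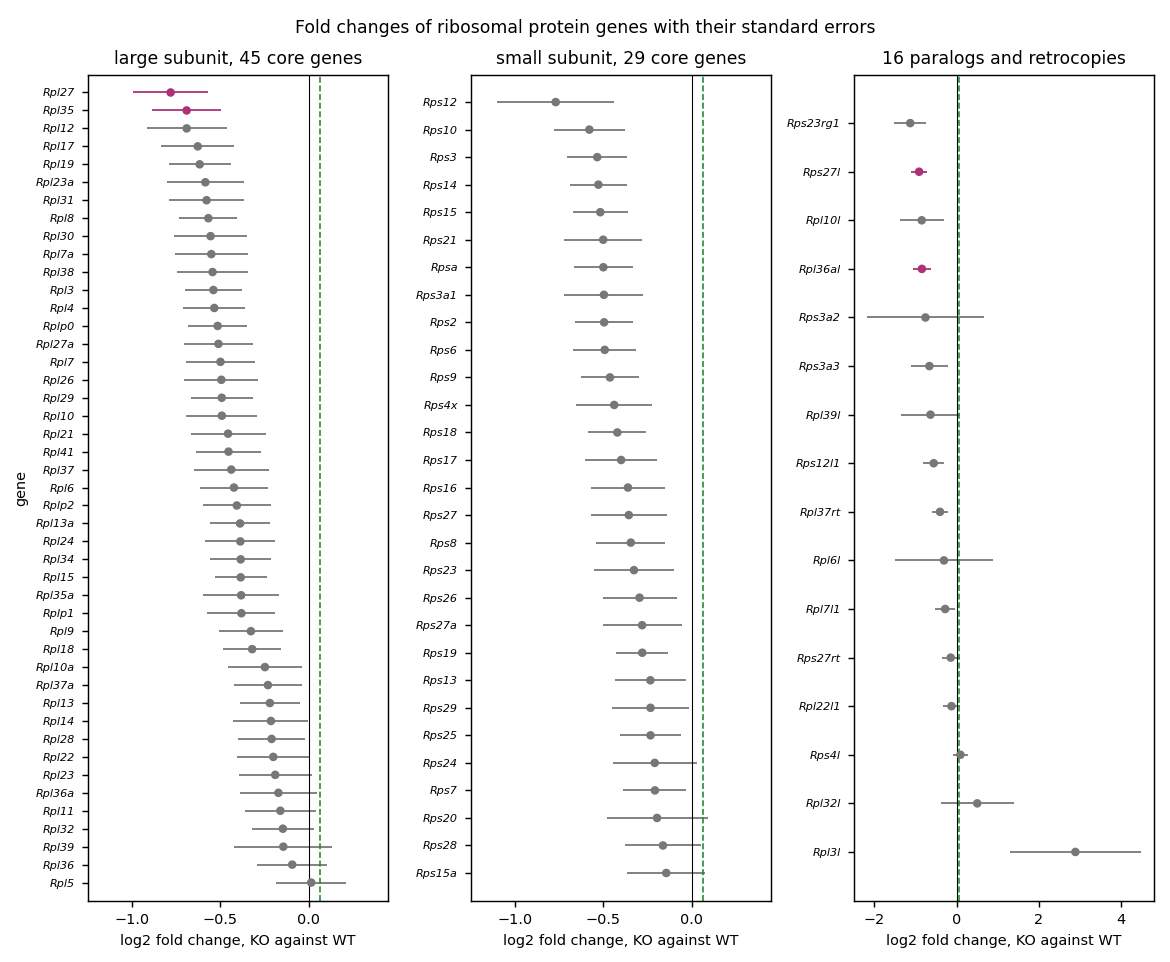
Log2 fold change, KO against WT, of 45 large and 29 small subunit core genes and of each paralog or retrocopy, with its standard error (line); purple marks genes called lower and the dashed line the median of all genes tested (0.06). All but Rpl5 among the core genes shown lie below 0, while the paralogs spread from -1.13 to 2.89. In mean TPM, which is scaled to each library's own total, 36 of all core genes were lower in KO and 41 higher.

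Large and small subunit genes differed little in their median fold change and in the ratio of their counts. The median log2 fold change was -0.41 for the 46 large subunit genes (45 below 0, 24 lower at an unadjusted p below 0.05, 2 called) and -0.40 for the 31 small subunit genes (31 below 0, 14 at an unadjusted p below 0.05, 1 called). Over all genes 10.2% were lower at an unadjusted p below 0.05. The ratio of large to small subunit counts was 1.22 ± 0.05 (SD, n = 6) in KO and 1.22 ± 0.04 (SD, n = 4) in WT, from 1.15 in KO replicate 5 to 1.28 in WT replicate 1. In TPM, which allows genes to be compared per length, the ratio was 1.10 ± 0.04 (SD, n = 6) in KO and 1.11 ± 0.03 (SD, n = 4) in WT. The mean TPM over the libraries was high for Rpl41 (3093) and Rplp0 (3045) in the large and Rps27 (3903), Rps19 (3691) and Rps2 (2927) in the small subunit. The lowest of the core genes, Rpl12 and Rpl5, were at 49.7 and 60.1 TPM.

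Among the structural parts of the large subunit, the peptide exit tunnel had the most genes with small p-values, and also the longest list. All 8 tunnel genes were below 0, 7 of them at an unadjusted p below 0.05, and 1 (Rpl35) was called. The 7 are 87.5%, against 49.4% of all core genes and 10.2% of all genes tested. The 1 called is 12.5%, against 11.6% of the short and abundant genes. KO lay below WT without overlap for 3 of the 8 (37.5%), against 7.79% of core genes and 3.48% of all genes tested. Rpl19, at the tunnel exit, was just outside the threshold: it was at 830, 899 and 1023 CPM in the lowest, median and highest KO library and at 1681, 1044, 1158 and 1797 CPM in WT, with no overlap (log2 fold change -0.62, SE 0.18, edgeR adjusted p = 0.101). Rpl4, which lines the tunnel, was also without overlap, at 1655 to 2021 CPM in KO and 2175 to 3889 CPM in WT (adjusted p = 0.136). Rpl39, the small protein near the tunnel exit encoded on the X chromosome, had the smallest difference of the group (log2 fold change -0.14, SE 0.28, adjusted p = 0.825).

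On the peptidyl transferase side and the L1 stalk, 0 of 4 genes were called and 3 had an unadjusted p below 0.05 (75%, against 49.4% of all core genes). Rpl3, near the site of peptide bond formation, was at 1443 to 1707 CPM in KO and 1825 to 2942 CPM in WT, and Rpl8 at 581 to 735 CPM in KO and 754 to 1202 CPM in WT. Neither overlapped, and the log2 fold changes were -0.54 (SE 0.16, edgeR adjusted p = 0.111) and -0.57 (SE 0.16, adjusted p = 0.103). Rpl10a of the L1 stalk was at -0.25 (adjusted p = 0.561).

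The 4 genes of the P stalk, which recruits elongation factors, had log2 fold changes from -0.69 (Rpl12) to -0.38 (Rplp1), with 0 called. Rplp0, its base and the gene with most counts among them, was at 2903 ± 228 CPM in the 6 KO libraries (mean ± SD) and 4148 ± 1037 CPM in the 4 WT libraries (adjusted p = 0.130).

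Of Rpl5 and Rpl11, which with 5S rRNA form a particle that can bind Mdm2, only Rpl5 stood at the other end. Rpl5 was at 81.0 ± 13.8 CPM in the 6 KO libraries (mean ± SD) and 80.2 ± 16.2 CPM in the 4 WT libraries, the only core gene above 0 (log2 fold change 0.01, SE 0.20, adjusted p = 0.979). Its correlation with the median of the core genes over the 10 libraries, 0.40, was the lowest of all. Rpl11 was at -0.16 (SE 0.20, adjusted p = 0.718), farther from 0 than for example Rpl36 (-0.09) and Rpl32 (-0.15). Its correlation with that median was 0.76, above that of Rpl10 (0.64).

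In the small subunit, none of the genes at the mRNA entry and decoding site (Rps2, Rps3, Rps9 and Rps23), at the mRNA exit and platform (4 genes, among them Rps14, Rps26 and Rps28) or of the beak (Rps10, Rps12 and Rps27a) were called. Their log2 fold changes ran from -0.77 (Rps12, SE 0.33, adjusted p = 0.230) to -0.16 (Rps28, SE 0.21, adjusted p = 0.735). Rps14, on the platform, was at 1247 ± 183 CPM in the 6 KO libraries (mean ± SD) and 1798 ± 279 CPM in the 4 WT libraries (log2 fold change -0.53, SE 0.16, adjusted p = 0.118). Rps3, at the mRNA entry, was at -0.53 (SE 0.17, adjusted p = 0.126).

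Of the 18 genes listed for Diamond-Blackfan anemia, 2 (Rpl27 and Rpl35) were called lower (11.1%, against 2.67% of all genes tested and 11.6% of the short and abundant genes above) and 6 had an unadjusted p below 0.05 (33.3%, against 49.4% of all core genes). Rps19, the gene most often mutated in that disease, was at 1476 ± 110 CPM in the 6 KO libraries (mean ± SD) and 1792 ± 291 CPM in the 4 WT libraries, a log2 fold change of -0.28 (SE 0.15, adjusted p = 0.328). The 4 X-linked genes, Rps4x, Rpl10, Rpl36a and Rpl39, had a median of -0.31 and none was called.

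Once the median of the core genes in each library was taken away, little was left for single genes. The median standard deviation of a core gene over the libraries was 0.34 on the log2 scale before and 0.14 after this. After it, Rpl23, Rpl36a and Rps7 were higher in every KO than in every WT library, by 0.19, 0.20 and 0.19 in the means. Rps10 was lower, by a difference of -0.17. For all others of the 77 core genes the groups overlapped. Rpl23, Rpl36a, Rps7 and Rps10 were picked out by that lack of overlap, and no test was made of it. Its share over all genes after the same step was not taken.

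The share of all counts on the core genes was 6.54, 5.68, 5.41, 6.05, 7.12 and 5.57% in KO replicates 1 to 6 and 8.55, 5.89, 4.83 and 7.97% in WT replicates 1 to 4. WT libraries held both the highest and the lowest value. Of the counts not on globin genes, core genes took 6.30 ± 0.75% (SD, n = 6) in KO and 7.23 ± 1.24% (SD, n = 4) in WT, and WT replicate 3 moved from 4.83% to 6.32%. The share of TPM was 10.1 ± 1.17% (SD, n = 6) in KO and 9.90 ± 2.67% (SD, n = 4) in WT, and without globin genes 10.6 ± 0.84% and 10.6 ± 1.68%. The KO mean was thus below the WT mean in counts and above it in TPM with globin genes included, while the means in TPM without them rounded to the same value. The groups overlapped in each case. The median log2 CPM of the core genes, relative to each gene's mean over all libraries, was highest in WT replicates 1 and 4 (0.57 and 0.44), followed by KO replicate 5 (0.23), and lowest in KO replicate 2 (-0.43). All 77 core genes were above their own mean in WT replicate 1, and none in KO replicates 2 and 3.

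**Figure D3:**
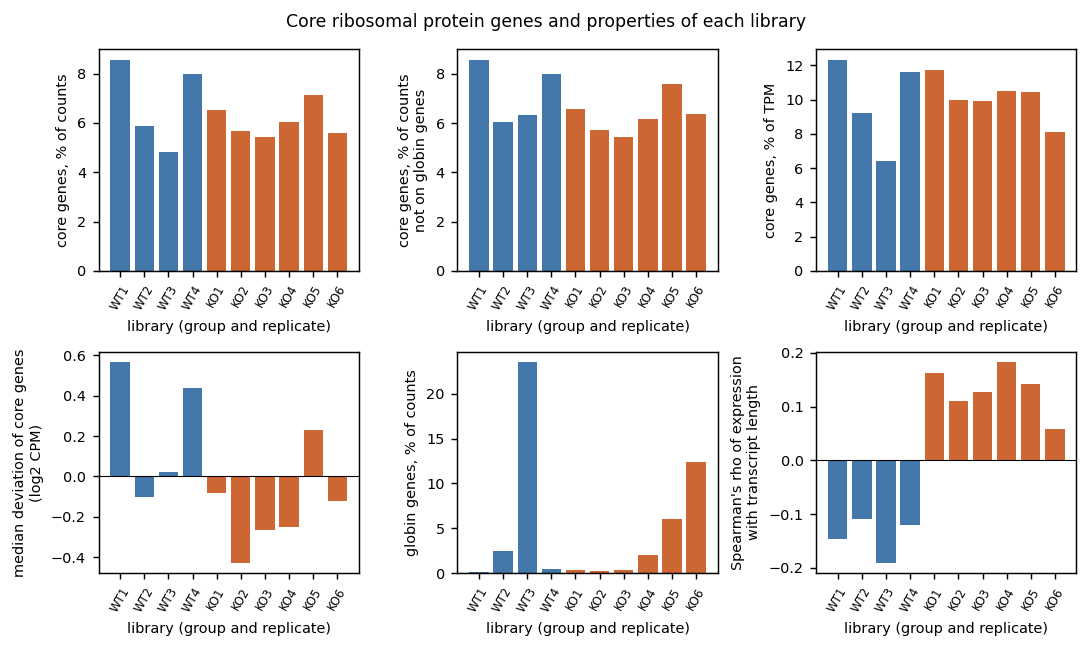
For each library, the share of core ribosomal protein genes in all counts, in counts not on globin genes and in TPM, the median deviation of the core genes (log2 CPM), the share of globin genes in counts, and Spearman's rho of expression with transcript length. The groups overlap in the first 5 panels, and rho is higher in every KO than in every WT library. Its sign depends on centring each gene on its mean over the libraries.

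A paralog can be set against its parent gene within a library, so that depth cancels. In 12 pairs, the log2 ratio of paralog to parent counts (1 count added to each) was compared between KO and WT by a two-sided exact permutation test. None of the pairs was below 0.1 after adjustment over the 12, but the smallest p that 6 against 4 libraries allow, 0.00952, becomes 0.114 when only 1 pair reaches it. Rpl36al against Rpl36a reached that value: the log2 ratio was -0.60 ± 0.28 (SD, n = 6) in KO and 0.02 ± 0.17 (SD, n = 4) in WT, a difference of -0.62 (exact permutation p = 0.00952, adjusted p = 0.114). Rpl36al made up 32.6 to 45.8% of the counts of the pair in KO and 47.3 to 53.9% in WT, and the libraries did not overlap.

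Rps27l against Rps27 differed by -0.56 (exact permutation p = 0.0381, adjusted p = 0.152), with overlap: Rps27l held 13.5 to 18.8% of the pair's counts in KO and 16.6 to 30.04% in WT. Rps23rg1, a retroposed copy of Rps23, differed from its parent by -0.83 (exact permutation p = 0.0286, adjusted p = 0.152). Rps23rg1 itself was low, at 3.64 to 8.99 CPM in KO and 10.8 to 21.7 CPM in WT, without overlap (log2 fold change -1.13, SE 0.38, edgeR adjusted p = 0.150). The parents Rps27 and Rpl36a had log2 fold changes of -0.36 (SE 0.22, edgeR adjusted p = 0.400) and -0.17 (SE 0.22, adjusted p = 0.724). Without KO replicate 3 the pairs Rpl36al/Rpl36a and Rps23rg1/Rps23 were below 0.1 after adjustment, both at 0.0952. Both were at the smallest exact permutation p that the remaining libraries allow, 0.0159. Pairs that reach this limit together get a smaller adjusted p than 1 alone, so the step below 0.1 is no sign of a larger difference.

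Rpl22l1 and Rpl22, a pair studied in the emergence of blood stem cells and in T cells, kept nearly equal counts. Rpl22l1 was at 114, 147 and 216 CPM (lowest, median and highest) in KO and at 207, 160, 132 and 176 CPM in WT. It made up 42.9 to 50.5% of the pair in KO and 43.3 to 46.4% in WT, and the log2 ratio differed by 0.07 (exact permutation p = 0.543, adjusted p = 0.777). Rpl7l1 against Rpl7 differed by 0.29 (p = 0.543), Rps27rt against Rps27 by 0.14 (p = 0.533) and Rps4l against Rps4x by 0.51 (p = 0.105), each by the exact permutation test before adjustment. Rps4l was the only paralog with over 100 counts in total and a log2 fold change above 0 (0.10, SE 0.18, edgeR adjusted p = 0.827).

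Paralogs known from other tissues were scarce. Rpl39l, a testis form of Rpl39, had 199 counts in all 10 libraries and 0.27 to 2.21% of the counts of its pair, and Rpl3l, the form of Rpl3 in heart and skeletal muscle, had 62 counts. Rpl10l, the testis form of Rpl10, had 3897 counts and ranged from 0.82 to 12.98% of its pair among WT libraries. Rps3a2 had 60 and Rps3a3 3407 counts. None of these 5 pairs had an exact permutation p below 0.1. The retrocopies Rpl37rt (log2 fold change -0.40, SE 0.21, edgeR adjusted p = 0.318) and Rps12l1 (-0.56, SE 0.25, adjusted p = 0.260) held 25014 and 44155 counts, the latter more than the 8884 of Rps12 itself.

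**Figure D4:**
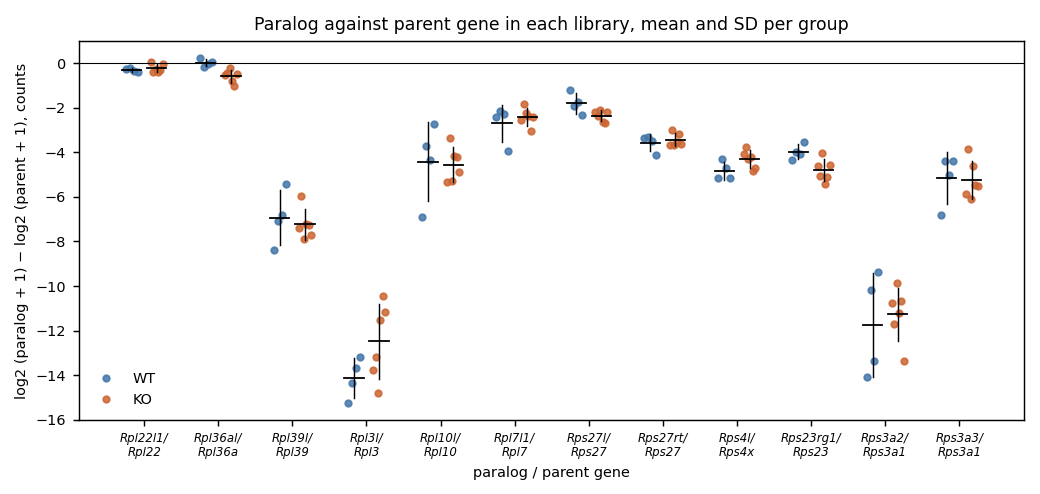
Log2 ratio of paralog to parent counts (1 added to each) in 4 WT and 6 KO libraries for 12 pairs; points are libraries, lines the mean and bars 1 SD. Only Rpl36al/Rpl36a shows no overlap of KO and WT points, and pairs with few counts spread most.

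Pseudogenes matter here because a processed pseudogene is an intronless copy that shares reads with its parent, and the authors' tool divides such reads by estimation. Of the 164, 150 had at least 11 counts in total, 106 of these had a log2 fold change below 0 (median -0.37) and 0 were called. They took 0.36 to 0.53% of all counts in KO libraries and 0.31 to 0.65% in WT libraries. The 10 pseudogenes with most counts held 87.2% of it. For 11 of the 46 core genes with a pseudogene in the table, over 10% of the counts of the family were on pseudogenes, and for Rps23, Rpl27, Rps12, Rpl10 and Rpl28 it was over 50% (75.2, 74.0, 72.5, 59.2 and 53.0%). The levels of these genes are therefore uncertain. The libraries of KO and WT overlapped in this share for all 5. Families held only genes named as pseudogenes, so the retrocopy Rps12l1 was left out of that of Rps12, in the share and in the sums below.

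Rpl27 was the called gene touched by this division of counts between a gene and its pseudogenes. Rpl27-ps3 held 49187 counts, against 17321 of Rpl27, and with Rpl27-ps2 it took 73.9 to 79.1% of the family in KO and 63.9 to 77.3% in WT. When each core gene was summed with its pseudogenes, the log2 fold change of Rpl27 went from -0.78 to -0.46 (SE 0.21, edgeR adjusted p = 0.272) and it was no longer called. In that fit 6 of 93 ribosomal protein genes tested were called lower, among them Rpl35, Rps27l and Rpl36al as before and also Rpl19 and Rpl8. Over all genes it was 469 of 16575. This summation was chosen after seeing the data.

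**Figure D5:**
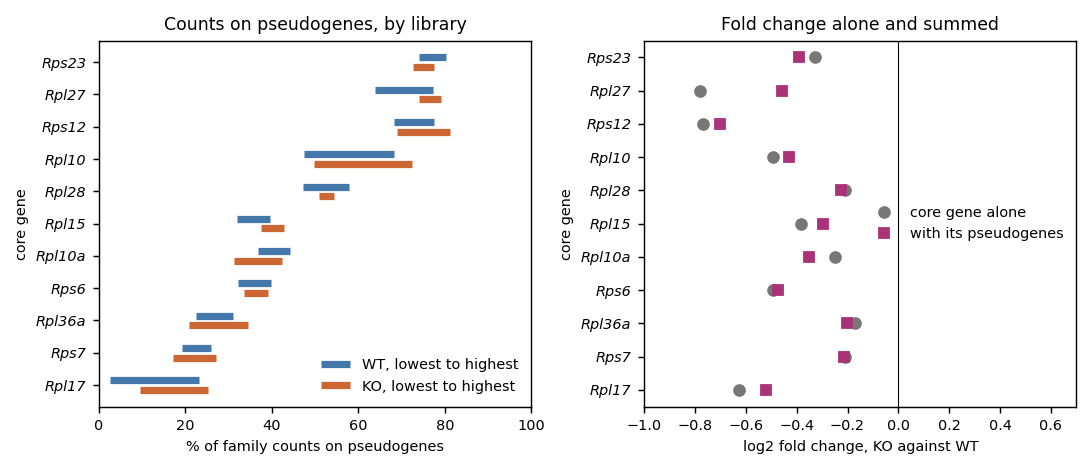
Left, the share of counts on pseudogenes in the families of 11 core genes, as a bar from the lowest to the highest library of each group; right, the log2 fold change, KO against WT, of each core gene alone and summed with its pseudogenes. KO and WT bars overlap in every family, and Rpl27 moves most, from -0.78 to -0.46.

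The pseudogenes with the smallest p above 0 in the fit were rare transcripts. Rpl23a-ps2 was at 0.22, 1.01 and 1.74 CPM (lowest, median and highest) in KO and at 0.08, 0.27, 0.07 and 0 CPM in WT, with 108 counts in all. Its log2 fold change was 3.07 (SE 1.05, edgeR adjusted p = 0.150), a fitted value for a gene with few reads. Rps2-ps9, Rps2-ps2 and Rpl21-ps7, had 227, 38 and 26 counts and adjusted p-values of 0.262, 0.276 and 0.256.

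Transcript estimates let the core genes be split by the class the annotation gives their transcripts. Transcripts classed as other than protein coding took 13.7 ± 1.03% (SD, n = 6) of the estimated counts of core genes in KO and 12.96 ± 0.41% (SD, n = 4) in WT. Retained-intron transcripts took 4.63 to 6.55% in KO and 4.22 to 5.004% in WT, and transcripts classed for nonsense-mediated decay 5.07 to 5.95% and 4.74 to 5.77%. KO replicate 5, the deepest library, had the 6.55% and stood apart from the other KO libraries, at 4.63 to 4.96%. Over all genes retained-intron transcripts took 4.42 to 5.42% in KO libraries and 3.49 to 5.24% in WT libraries.

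Genes that work with the ribosomal proteins were read from lists chosen by function. Rack1 and Fau also encode proteins of the small subunit, lie outside the naming rule and were called lower: Fau had a log2 fold change of -1.02 (SE 0.19, edgeR adjusted p = 0.0824) and Rack1 of -0.60 (SE 0.17, adjusted p = 0.0997). They belong to a list of 20 other TOP mRNAs, of which 5 were called lower and 0 higher, among them also Eef1d and Eef1g, subunits of an elongation factor complex (-0.77 and -0.68). All 20 were below 0, with a median of -0.48. The 5 of 20 (25%) stand against 2.67% of all genes tested and 11.6% of the short and abundant genes. With the length offset 2 of the 20 were called lower (Naca and Fau), against 272 of all 16725 genes tested in that fit. A share among short and abundant genes was not taken with this offset. The median of the list was -0.48 there, and mean TPM was lower in KO for 11 of the 20. Of 21 tested genes of ribosomal protein chaperones and late assembly, 5 were called lower and 0 higher, with a median of -0.55: Rpf2, which loads the 5S particle (-1.32), Mrto4, which precedes the P stalk (-1.31), Pno1 (-1.004), Bccip (-0.87) and Eif6, which keeps new large subunits apart from small ones (-0.68). These 5 of 21 are 23.8%, beside the same 2.67% and 11.6%. With the length offset 4 were called lower (Rpf2, Mrto4, Wdr12 and Bysl), beside the same 272 of 16725 genes. The median of this list was -0.65 there, and mean TPM was lower in KO for 14 of the 21. The regulators of TOP mRNAs, among them Mtor, Larp1, Tsc1 and Myc, had 0 of 12 called in either direction and a median of 0.12. Of 9 genes of the response to ribosomal stress 0 were called (median 0.22), with Cdkn1a, a target of p53, at 49.2 ± 22.3 CPM in the 6 KO libraries (mean ± SD) and 19.8 ± 8.39 CPM in the 4 WT libraries (log2 fold change 1.31, SE 0.40, edgeR adjusted p = 0.118) and Trp53 itself at 0.08 (adjusted p = 0.864).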

How the data were processed

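RNA was measured in 10 SmartSeq2 libraries, 6 KO and 4 WT, which were grouped by the genotype given in the labels. Per the labels and the study's methods, the authors demultiplexed the reads with bcl2fastq 2.20 and ran kallisto 0.44.0 against Gencode vM16 transcripts (build GRCm38). For each library the authors deposited estimated counts and TPM per transcript, TPM being scaled for effective length, and 1 table of whole-number counts per gene symbol, without normalization. How transcripts were summed to symbols is not given in the sources used here. Reads carry no molecular identifiers and no strand, so antisense and overlapping genes cannot be told apart. Positions and transcript classes came from Gencode vM21 on the same build, and 133445 of 133944 transcripts matched it.

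All genes that reached 11 counts over the libraries entered a comparison with edgeR 4.0.16 (TMM, glmQLFit with robust estimation, glmQLFTest, Benjamini-Hochberg adjustment over all genes, threshold 0.1; this threshold and the filter follow the study). Standard errors were derived from the F statistic. The test was checked on drawn counts with known changes. Paralog pairs were compared by two-sided exact permutation tests over the 210 assignments of libraries. Alternatives were DESeq2 1.42.0 with and without a log2 fold-change threshold of 0.1, RLE and upper-quartile normalization, filterByExpr, a filter at 1 count, no robust option, loess offsets (span 0.3) on transcript length and GC content, the level of Xist as a covariate for sex, sums of transcript estimates, a threshold of 0.05 and each library left out; for pairs, TPM and pseudocounts of 0.5 and 5. Chosen after seeing the data were summation with pseudogenes, the core total as library size, and leaving out globin genes or the 3 libraries with over 5% of counts on them. The members and lists were chosen with earlier results of these data known. Genes named are those called, the 5 smallest p-values in each direction, both genes of each pair, the 3 highest in TPM per subunit and the members of role groups; others are named where a pattern picked them. Replicates are numbered in the order of deposit. Start windows came from RefSeq promoters (GRCm38.p6). Results for some named genes are not reported here.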

Additional observations from a re-analysis of the deposited data

Results flagged for a closer look

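In 178 groups of libraries (KO or WT) for the shares, ratios and levels reported, a library was marked where its gap to the nearest other library was large against the range of its group by Dixon's criterion, which chance meets in about 1 of 20 groups. There were 15 such marks, 8 of them on KO replicate 5. In that library retained-intron transcripts took 6.55% of the estimated counts of core genes (4.63 to 4.96% in the other KO libraries). Its levels were also the highest of the KO group for Rpl22 (266 CPM), Rpl23a (895 CPM), Rpl35a (599.8 CPM), Rps24 (937 CPM), Rps27rt (149.8 CPM), Rps4x (1648 CPM) and the rare pseudogene Rps2-ps2 (0.83 CPM).

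The other 7 marks were spread over libraries. WT replicate 1 was high for Rpl10 (1050 CPM, 539 to 596 in the other WT libraries) and Rpl39 (277 CPM, 157 to 175), 2 X-linked genes. KO replicate 2 was low for Rpl4 (1655 CPM, 1962 to 2021 in the other KO libraries). It also had the highest log2 ratio of Rpl39l to Rpl39 in the KO group (-5.95). WT replicate 4 had the lowest log2 ratio of Rpl7l1 to Rpl7 (-3.95). The rare pseudogenes Rpl21-ps7 in KO replicate 4 (0.73 CPM) and Rps2-ps2 in WT replicate 3 (0.0739 CPM) rested on a few reads.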

How the results depend on the processing

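The number of ribosomal protein genes lower in KO, 5, was from 0 to 15 with each library left out: 0 without KO replicate 1, 2, 4, 5 or 6 or WT replicate 1, 15 without WT replicate 2, 7 without WT replicate 3 and 2 without WT replicate 4. It was 25 by DESeq2, 22 with the GC offset, 10 with filterByExpr, 3 with RLE normalization, without the robust option and without the filter, 2 with upper-quartile normalization, and 0 with the length offset, with Xist as a covariate (no gene of the table passed there), with the core total as library size, without the 3 libraries rich in globin and at a threshold of 0.05. It was 4 by DESeq2 with the fold-change threshold, 5 with transcript sums and without globin genes, and 6 with pseudogenes summed. The number higher, 0, was 1 by DESeq2 with and without the threshold (Rpl23a-ps2). Calls over all genes moved as well, from 446 of 16725 lower in the main fit. With the GC offset 1078 of 16725 genes were lower (22 of 243 members), with filterByExpr 646 of 13665 (10 of 155 members). Without WT replicate 2 it was 532 of 16662 (15 of 240 members), and by DESeq2 7.85% of genes with an adjusted p. With the length offset 272 of 16725 were lower. The median log2 fold change of the core genes was -0.41, from -0.52 to -0.30 with each library left out, -0.22 with the length offset and -0.53 without the globin-rich libraries; among these fits it turned with the core total as library size (0.0117), which centres these genes by construction, and the median log2 ratio of mean TPM was 0.01. Rps27l was past the threshold in 15 of the 25 alternative fits, Rpl36al in 14, Rpl27 in 13 and Rpl35 in 7, and their log2 fold changes stayed below 0. The difference in the share of counts on all members, KO minus WT, was -0.81 percentage points, -1.01 without globin, -0.749 for core genes alone and 0.24 in TPM. The difference in the ratio of large to small subunit was from -0.02 to 0.02 with each library left out. Of the 12 paralog pairs, 0 were below 0.1 after adjustment, and 0 to 2 with each library left out, 2 without KO replicate 3. Leaving out a library raises the smallest p that the permutation test allows, so these counts cannot show whether a pair depends on 1 library. The difference of Rpl36al against Rpl36a stayed between -0.69 and -0.53 over the alternatives. No paired analysis was possible because the labels give every library its own number. Levels of genes that share reads with pseudogenes, and of paralogs with few counts, are limited by the division of reads and by depth; the causes of the other shifts were not tested.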
